A study of Mus musculus with 7 samples.

Results

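The 10 genes followed here in sorted mouse Paneth cells are ones that FOXO transcription factors are known to switch on when nutrients are scarce. They are Txnip, Pik3ip1, Klf15, Cited2, Bcl6, Ccng2, Cdkn1b, Gadd45a, Gadd45b and Gabarapl1, taken by name, and each is read from its brightest transcript cluster, a group of probes summarised per gene. All 10 were measured, and all 10 were among the 13409 genes tested, of 19938 genes named on the array. Total RNA from 4 samples of calorie-restricted mice was set against 3 samples of mice fed ad libitum, each on its own Affymetrix array. The restricted mice received 60% of the ad libitum calories, and mice of both groups were kept on their diets for 4 to 7 weeks. They were 4 months old, and Paneth cells were collected from them by flow cytometry. Neither the strain nor the number of animals per sample is given in the sources used here.

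FOXO factors are forkhead transcription factors that insulin signalling holds out of the nucleus. Insulin and growth factors activate PI3K and then AKT, AKT phosphorylates FOXO, and the phosphorylated factor is exported to the cytoplasm. When insulin is low, as in fasting, FOXO returns to the nucleus and switches on genes that slow sugar use, arrest the cell cycle, repair DNA and recycle cell contents. Paneth cells, the antimicrobial secretory cells of the small-intestinal crypt, also supply signals to the neighbouring stem cells.

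None of the 10 genes passed the test over all genes (limma, adjusted p below 0.05), against 0.656% of all genes tested that were called higher under calorie restriction and 0.00746% called lower. Gadd45b, Cited2 and Ccng2 were the 3 genes for which every calorie-restricted array lay above every ad libitum array, and over all genes tested 7.14% did so. The opposite order was seen for 0 of the 10 genes and for 3.03% of all genes. Unadjusted p was below 0.05 for 4 genes, the same 3 and Bcl6, and for 9.30% of all genes tested. A difference below is the calorie-restricted mean minus the ad libitum mean of log2 values, given ± the SE of the limma fit. The median difference of the 10 genes was 0.22, with 7 positive and 3 negative, and the median over all genes tested was 0.01, with 54.2% positive. The mean level of 26 enterocyte (absorptive cell) markers also did not overlap between the diets, at 11.67 to 11.84 in calorie-restricted arrays and 10.47 to 11.07 in ad libitum arrays. For the genes and lists that differ by diet, an effect of diet and one of enterocyte content therefore cannot be told apart. In bulk samples, more cells of a type and more RNA per cell cannot be told apart either.

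**Figure D1:**
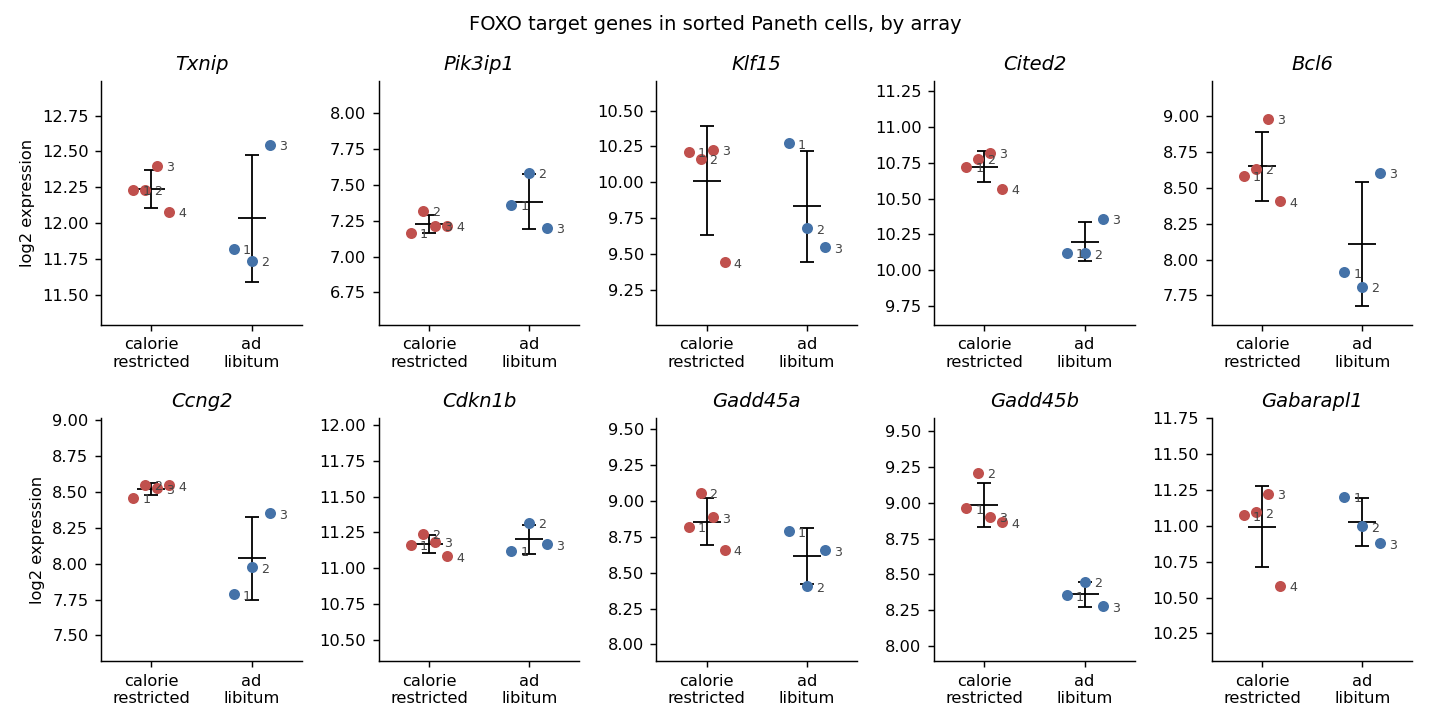
Log2 expression of the 10 FOXO target genes in each array, with calorie-restricted arrays (n = 4, red) left of ad libitum arrays (n = 3, blue). Numbers beside points are replicate numbers, black marks give the mean ± SD, and every panel spans the same log2 range. Gadd45b, Cited2 and Ccng2 are the panels in which the diets do not overlap, and in the Txnip and Bcl6 panels ad libitum replicate 3 lies among or above the calorie-restricted arrays.

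The start regions of these genes were read from RefSeq (GRCm38.p6) as the 250 bases before each annotated transcription start, and all 10 genes matched, with 11 entries because Bcl6 had 2. A set of 3 short motifs was searched on both strands: GTAAACA, the FOXO consensus, CAAAACA, the core of the insulin response element that FOXO also binds, and CACGTG, the E-box that carbohydrate-sensing Mondo factors and clock factors bind. Sequences are shown for the 3 genes whose arrays did not overlap between the diets and for Txnip. Of the set, only Txnip held an exact match to the FOXO consensus. Motif matches are in capitals, and matches of different motifs did not overlap. The regions are chr3:96557707-96557956, plus strand for Txnip, chr10:17722978-17723227, plus strand for Cited2, chr5:93267323-93267572, plus strand for Ccng2 and chr10:80929841-80930090, plus strand for Gadd45b.
Txnip: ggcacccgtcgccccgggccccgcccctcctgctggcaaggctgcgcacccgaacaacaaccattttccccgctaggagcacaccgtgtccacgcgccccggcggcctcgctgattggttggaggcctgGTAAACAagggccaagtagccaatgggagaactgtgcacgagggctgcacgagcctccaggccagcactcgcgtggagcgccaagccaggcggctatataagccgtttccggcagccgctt
Cited2: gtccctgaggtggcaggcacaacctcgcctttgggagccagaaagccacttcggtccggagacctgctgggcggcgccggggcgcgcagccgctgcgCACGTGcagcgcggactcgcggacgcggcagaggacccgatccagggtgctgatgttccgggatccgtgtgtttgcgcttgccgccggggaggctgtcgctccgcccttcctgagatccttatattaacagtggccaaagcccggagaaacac
Ccng2: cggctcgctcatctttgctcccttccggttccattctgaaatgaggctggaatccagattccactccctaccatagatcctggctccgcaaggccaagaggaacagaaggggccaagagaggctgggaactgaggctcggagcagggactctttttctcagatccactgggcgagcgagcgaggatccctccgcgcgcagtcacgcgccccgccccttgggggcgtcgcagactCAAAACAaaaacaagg
Gadd45b: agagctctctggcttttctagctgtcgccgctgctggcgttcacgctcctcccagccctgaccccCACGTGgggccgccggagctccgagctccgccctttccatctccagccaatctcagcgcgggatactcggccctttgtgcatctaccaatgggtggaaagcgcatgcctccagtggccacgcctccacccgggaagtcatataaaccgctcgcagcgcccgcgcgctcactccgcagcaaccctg

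The FOXO consensus of Txnip began 121 bases before its start, and 3.17% of all 32851 start regions in the table held this motif. The insulin response element of Ccng2 began 16 bases before its start, and 5.56% of all regions held that motif. E-boxes were found in 4 genes, namely Cited2, Gadd45b, Bcl6 and Klf15, where 6.02% of all regions held one. That percentage counts regions, not genes, and the further Bcl6 region held no E-box. The regions with an E-box had 58.4% to 72.0% G and C bases, and the median over all regions was 52.4%. Whether the set is enriched in E-boxes was not tested. The E-box began 153 bases before the start in Cited2 and 185 bases before it in Gadd45b. These are exact matches of letters in a short window, and FOXO sites outside it were not searched. Variants of the motifs were not searched either. A region without a match, such as that of Txnip for the E-box, may therefore hold a variant site.

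With all arrays weighted equally, the largest difference of the set was in a stress gene. Gadd45b, which encodes a small stress-induced protein that binds kinases and takes part in DNA demethylation, was at 8.96, 9.21, 8.90 and 8.86 in calorie restricted replicates 1 to 4, against 8.36, 8.45 and 8.28 in ad libitum replicates 1 to 3. All calorie-restricted arrays were high and all ad libitum arrays low, with the nearest pair from different diets separated by more than the SD of either group. The means were 8.98 ± 0.16 and 8.36 ± 0.09 (SD, n = 4 and 3), a 1.54-fold difference (0.62 ± 0.11 SE). Its adjusted p of 0.0570 (limma) lay just outside the threshold, and with eBayes without an intensity trend it was 0.0480. Across the fits that left out each array the adjusted p was between 0.0800 and 0.174, while the difference stayed between 0.55 and 0.67. Bcl6 had a larger difference than Gadd45b with array weights and in the fits without calorie restricted replicate 2 or ad libitum replicate 3, and in that last fit Cited2 and Ccng2 did so too.

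Gadd45a, its relative that p53 and FOXO induce after DNA damage, was at 8.82, 9.06, 8.89 and 8.66 in calorie restricted replicates 1 to 4, against 8.79, 8.41 and 8.66 in ad libitum replicates 1 to 3. Here the diets overlapped, since calorie restricted replicate 4 lay below ad libitum replicate 1 and level with ad libitum replicate 3. The difference was 0.24 ± 0.13 (95% interval -0.06 to 0.54, limma, adjusted p = 0.674), and it was 0.13 without ad libitum replicate 2. Gadd45g, the remaining family member and not in the set, had a difference in the other direction, at 10.52 ± 0.45 against 11.11 ± 0.35 (-0.59 ± 0.25, limma, adjusted p = 0.533).

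Among the transcriptional regulators, Cited2 stood apart by diet. Cited2, a coactivator-binding protein that limits hypoxia-inducible factor and helps induce gluconeogenic genes in fasted liver, was at 10.72, 10.78, 10.82 and 10.57 in calorie restricted replicates 1 to 4, against 10.12, 10.12 and 10.36 in ad libitum replicates 1 to 3. Its lowest calorie-restricted array was replicate 4 and its highest ad libitum array was replicate 3, and these did not meet. The means were 10.72 ± 0.11 and 10.20 ± 0.14, a 1.44-fold difference (0.52 ± 0.10, limma, adjusted p = 0.0673). Leaving out each array gave differences from 0.48 to 0.60 and adjusted p from 0.0570 to 0.346.

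Bcl6, a zinc finger repressor that restrains lipid catabolism genes in liver and guides germinal-centre B cells, was at 8.59, 8.63, 8.98 and 8.41 in calorie restricted replicates 1 to 4. In ad libitum replicates 1 to 3 it was at 7.91, 7.81 and 8.61. Ad libitum replicates 1 and 2 lay below all calorie-restricted arrays, whereas ad libitum replicate 3 lay above calorie restricted replicates 1 and 4. The difference was 0.54 ± 0.21 (95% interval 0.06 to 1.03, limma, adjusted p = 0.470), and it was 0.79 in the fit that left out ad libitum replicate 3 (adjusted p = 0.117).

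Klf15, a Krüppel-like factor that drives amino acid breakdown and gluconeogenesis in fasting, had no such split. It was at 10.21, 10.16, 10.23 and 9.44 in calorie restricted replicates 1 to 4, against 10.27, 9.68 and 9.55 in ad libitum replicates 1 to 3. Calorie restricted replicates 1 to 3 and ad libitum replicate 1 were high, and calorie restricted replicate 4 was the lowest of the 7. The difference was 0.18 ± 0.24 (95% interval -0.37 to 0.73, limma, adjusted p = 0.881), with values from 0.04 without ad libitum replicate 3 to 0.40 without ad libitum replicate 1.

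**Figure D2:**
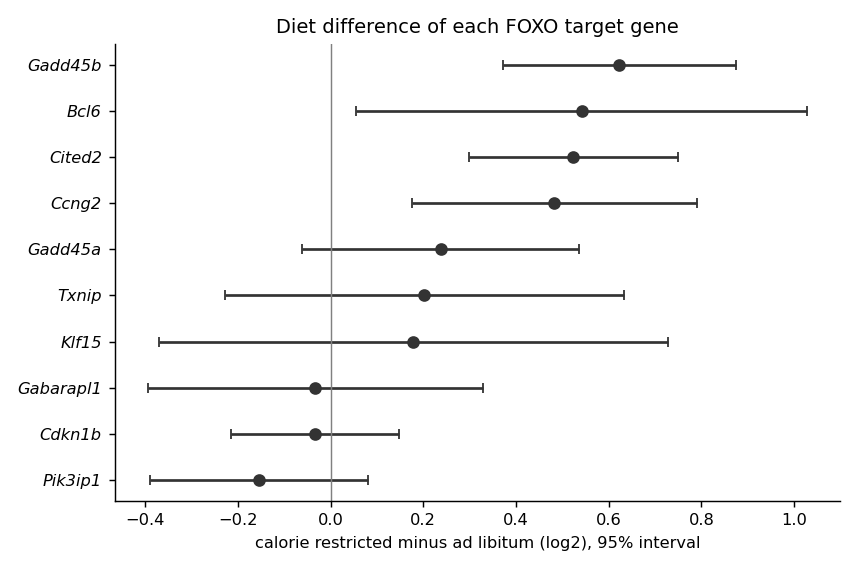
Difference of each gene between calorie-restricted and ad libitum arrays on the log2 scale (points) with the 95% interval of the limma fit (bars). The intervals of Gadd45b, Bcl6, Cited2 and Ccng2 lie above 0, those of the other 6 genes include 0, and none of the 10 passed after adjustment over all genes.

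Of the cell cycle genes, Ccng2 was higher in every calorie-restricted array. Ccng2 encodes cyclin G2, an unconventional cyclin that FOXO induces and that accompanies cell cycle arrest. It was at 8.46, 8.55, 8.53 and 8.55 in calorie restricted replicates 1 to 4, against 7.79, 7.97 and 8.35 in ad libitum replicates 1 to 3. The calorie-restricted arrays were close together (SD 0.04) and the ad libitum arrays were spread (SD 0.29), with replicate 3 nearest to the other diet. The difference was 0.48 ± 0.13 (1.40-fold, limma, adjusted p = 0.235), and it was 0.36 without ad libitum replicate 1 and 0.64 without ad libitum replicate 3. Its relatives Ccng1 and Ccni, from a list of relatives, were at -0.26 ± 0.14 and 0.24 ± 0.07 (limma, adjusted p = 0.643 and 0.244).

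Cdkn1b, the inhibitor of cyclin-dependent kinases through which FOXO holds cells in G1, was nearly level. It was at 11.17, 11.24, 11.18 and 11.08 in calorie restricted replicates 1 to 4, against 11.12, 11.32 and 11.17 in ad libitum replicates 1 to 3. The groups overlapped over most of their range, and the difference was -0.03 ± 0.08 (95% interval -0.22 to 0.15, limma, adjusted p = 0.938). After median centring of the arrays its sign turned (0.05). A list of 14 genes held the kinases, cyclins and pocket proteins that work with Cdkn1b, together with Skp2, the F-box protein that marks it for breakdown, and the Skp2 adaptor Cks1b. Of these, 0 were called, 0 had an unadjusted p below 0.05 and 0 had diets that did not overlap. Ccne2 (0.44 ± 0.20), Cdk6 (-0.28 ± 0.19), Rbl1 (0.28 ± 0.20) and Ccnd2 (0.22 ± 0.18) had the smallest p.

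The regulators of nutrient uptake and insulin signalling did not separate the diets. Txnip, an arrestin-like protein that binds thioredoxin and removes glucose transporters from the cell surface, was at 12.23, 12.23, 12.40 and 12.08 in calorie restricted replicates 1 to 4. In ad libitum replicates 1 to 3 it was at 11.82, 11.74 and 12.55. Ad libitum replicates 1 and 2 lay below all calorie-restricted arrays, and ad libitum replicate 3 was the highest array of all. The difference was 0.20 ± 0.19 (95% interval -0.23 to 0.63, limma, adjusted p = 0.833). It was 0.46 in the fit that left out ad libitum replicate 3 (adjusted p = 0.153), 0.09 without ad libitum replicate 1 and 0.05 without ad libitum replicate 2. Its arrestin relative Arrdc4, which responds to the same glucose-sensing Mondo factors, was at 10.03 ± 0.05 against 10.00 ± 0.20.

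Pik3ip1, a membrane protein that inhibits PI3K and so acts above FOXO, had the most negative difference of the set with the deposited values, but not after quantile normalization, where Gabarapl1 was at -0.08. It was at 7.17, 7.32, 7.21 and 7.21 in calorie restricted replicates 1 to 4, against 7.36, 7.58 and 7.203 in ad libitum replicates 1 to 3. Ad libitum replicates 1 and 2 were the highest arrays and replicate 3 lay among the calorie-restricted ones. The difference was -0.15 ± 0.10 (95% interval -0.39 to 0.08, limma, adjusted p = 0.745). It was -0.24 without ad libitum replicate 3, -0.05 without ad libitum replicate 2 and -0.07 after either median centring or quantile normalization. Its values are near the filter level of 6.79, and no detection call was used, so its signal has no stated background.

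Gabarapl1, which encodes a ubiquitin-like protein that is attached to autophagosome membranes, was at 11.08, 11.09, 11.23 and 10.58 in calorie restricted replicates 1 to 4. In ad libitum replicates 1 to 3 it was at 11.20, 10.999 and 10.88. Calorie restricted replicate 4 was the lowest array and the others overlapped. The difference was -0.03 ± 0.16 (95% interval -0.39 to 0.33, limma, adjusted p = 0.969), with the sign turning to 0.10 without calorie restricted replicate 4, to 0.06 without ad libitum replicate 1 and to 0.05 after median centring. Its relatives Gabarap (0.06 ± 0.08), Gabarapl2 (0.04 ± 0.13) and Map1lc3b (0.05 ± 0.13) were likewise not called.

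The 10 genes did not share a single array pattern. Averaged over the 10 genes after centring each on its own mean, calorie restricted replicates 1 to 4 were at 0.11, 0.20, 0.21 and -0.08, against -0.15, -0.22 and -0.07 in ad libitum replicates 1 to 3. On this average calorie restricted replicate 4 was closest to ad libitum replicate 3. All 10 genes were above their own mean in calorie restricted replicate 2 and 2 of 10 were in ad libitum replicate 2. Likeness between genes was measured as the root mean square difference of centred log2 values over the 7 arrays, with no test. Pik3ip1 and Cdkn1b, both with small ranges, were the closest pair (0.10), followed by Cited2 and Ccng2 (0.12), Cited2 and Gadd45b (0.16), Klf15 and Gabarapl1 (0.18) and Txnip and Bcl6 (0.18). Klf15 and Gabarapl1 share the low value in calorie restricted replicate 4, and Txnip and Bcl6 share the high value in ad libitum replicate 3.

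**Figure D3:**
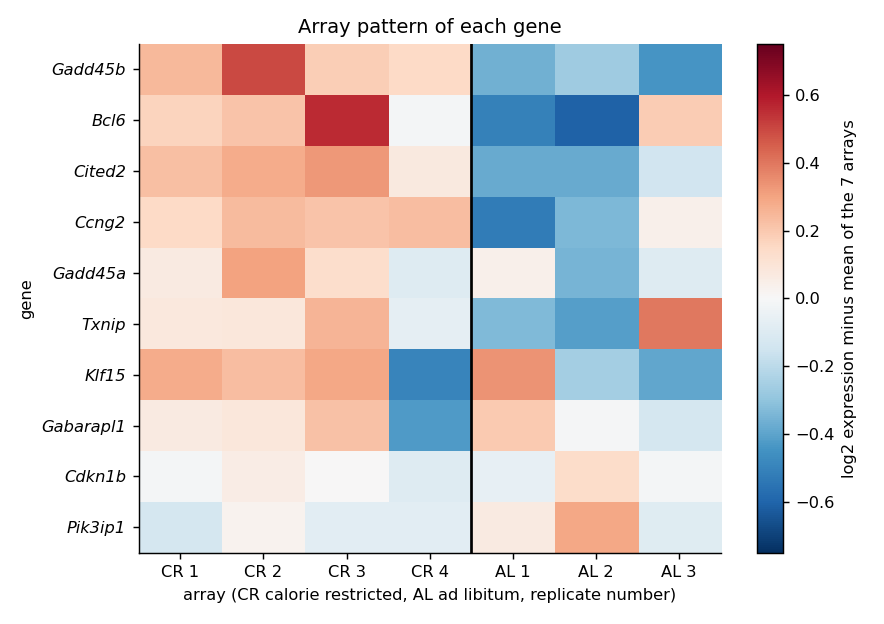
Log2 expression of each gene minus its mean over the 7 arrays, with calorie-restricted (CR) arrays left of the line and ad libitum (AL) arrays right of it. Genes run from the largest to the smallest diet difference. Gadd45b and Cited2 are above their mean in all CR arrays and below it in all AL arrays, Txnip and Bcl6 are also high in AL 3, and Klf15 and Gabarapl1 are low in CR 4.

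Single arrays decided the size of several differences. Without ad libitum replicate 3, Txnip and Bcl6 joined the genes whose diets did not overlap, making 5 of 10, where 10.6% of all genes tested then did so in that direction. The median of the 10 genes, 0.22 with all arrays, was then 0.36. It was 0.34 without ad libitum replicate 1, 0.34 without calorie restricted replicate 4 and 0.12 without ad libitum replicate 2. In each of the 7 fits without 1 array, 0 of the 10 genes were called.

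**Figure D4:**
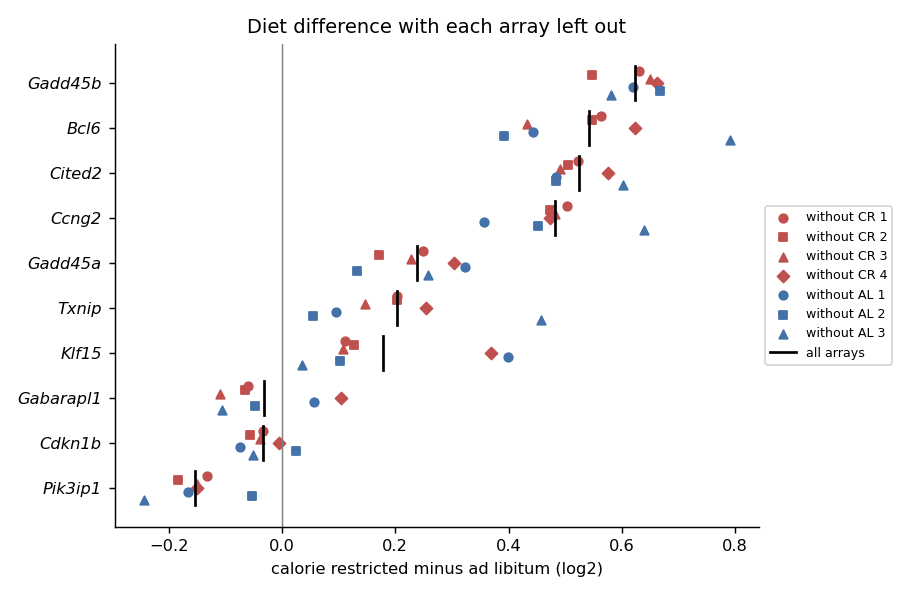
Difference of each gene (log2, calorie restricted minus ad libitum) with all arrays (black line) and with each array left out (symbols, red for calorie restricted (CR) and blue for ad libitum (AL) arrays). Gadd45b, Cited2, Ccng2 and Bcl6 stay above 0.3 in every fit, Txnip, Bcl6, Cited2 and Ccng2 are highest without AL 3, and Gabarapl1 and Cdkn1b cross 0.

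Among the other tested genes, the closest to Gadd45b in array pattern were Cbr1 (0.10) and Podn (0.11), and Podn was itself called, with a difference of 0.72 ± 0.10 (limma, adjusted p = 0.0297). Podn lost its call in 5 of the 7 fits that left out an array (adjusted p from 0.0604 to 0.135) and kept it when calorie restricted replicate 4 or ad libitum replicate 1 was left out. It also lost its call with quantile normalization (limma, adjusted p = 0.0587). The closest to Cited2 were Phlpp2 and Crip1 (0.07 and 0.08), with differences of 0.50 and 0.49, and the closest to Ccng2 were Cpt2 and Nat8f4 (0.08 each). Reg3g and Ldhb were closest to Txnip (0.12 and 0.14), and Angptl4 and Prap1 to Bcl6 (0.15 and 0.17). Dph3 and 1110008P14Rik were closest to Klf15 (0.03 and 0.06), Them4 and Dph6 to Gadd45a (0.05 each), and Slc35f5 and Arfgap3 to Gabarapl1 (0.04 each). F11r and Rad51d were closest to Cdkn1b (0.02 each) and Crhbp and Zfp263 to Pik3ip1 (0.04 each).

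The FOXO factors themselves and most of the pathway above them gave small differences. Of 16 tested genes of this list, Sgk1 was the only one called. It encodes a kinase that phosphorylates FOXO and that glucocorticoids induce, and it rose to 9.01 ± 0.22 in calorie-restricted arrays, against 7.46 ± 0.54 in ad libitum arrays (2.93-fold, limma, adjusted p = 0.0400). The Sgk1 call was lost in 6 of the 7 fits without 1 array (adjusted p from 0.0640 to 0.160) and held when ad libitum replicate 3 was left out (0.0123). Foxo1 was at 9.64 ± 0.08 against 9.54 ± 0.09, Foxo3 at 9.34 ± 0.07 against 9.23 ± 0.17, and Foxo4 at 8.64 ± 0.15 against 8.67 ± 0.07. These differences were all within 0.11 log2 units (limma, adjusted p = 0.815 or more). Irs2, an insulin receptor substrate and itself a FOXO target in liver, was at 9.11 ± 0.11 against 8.78 ± 0.04, with diets that did not overlap (0.33 ± 0.09, limma, adjusted p = 0.231). Akt1 (0.13 ± 0.09) and Irs1 (-0.18 ± 0.12) had the next smallest p. Messenger RNA levels do not report the phosphorylation or location of FOXO.

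Of 31 other FOXO targets tested, 0 were called, 6 had an unadjusted p below 0.05, 25 were positive, and the median difference was 0.09. Over all genes tested 54.2% were positive and 9.30% had an unadjusted p below 0.05. Of the 31, 3 had all calorie-restricted arrays above the ad libitum arrays, namely Cat, Pdk4 and Angptl4. Over all genes tested 7.14% did so, and 3.03% had the opposite order. The catalase gene Cat was at 12.47 ± 0.11 against 12.05 ± 0.07 (limma, adjusted p = 0.0764). Pdk4, the kinase that shuts pyruvate out of the mitochondrial oxidation pathway, was at 10.14 ± 0.53 against 7.99 ± 0.90 (limma, adjusted p = 0.0891), and the lipoprotein lipase inhibitor Angptl4 was at 8.001 ± 0.23 against 7.37 ± 0.40. Sesn3, a sestrin that restrains mTORC1, lay the other way, at 9.28 ± 0.08 against 9.62 ± 0.17 (limma, adjusted p = 0.307). Of 8 growth genes that FOXO activity lowers, 0 were called and 0 had an unadjusted p below 0.05, and Fasn (-0.24 ± 0.11), Ccnd2 (0.22 ± 0.18), Plk1 (0.30 ± 0.28) and Foxm1 (0.33 ± 0.39) had the smallest p. Of 17 tested relatives of the 10 genes, 0 were called and 2 had an unadjusted p below 0.05, with a median of 0.04, and besides those named above Klf10 (0.29 ± 0.22) had the smallest p.

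Several of the 10 genes also respond to signals other than FOXO, not all of them signals of fasting. Klf15 is induced by glucocorticoids, and of 17 tested glucocorticoid response genes 3 were called higher, with a median of 0.43. These were the zinc finger gene Zbtb16 (1.12 ± 0.09), the receptor co-chaperone Fkbp5 (1.29 ± 0.15) and Sgk1 (1.55 ± 0.24), followed by the uncalled Per1 (0.75 ± 0.13). Zbtb16 was called in all 7 fits without 1 array, and Fkbp5 in 5 of 7, with adjusted p of 0.0646 without calorie restricted replicate 1 and 0.0582 without ad libitum replicate 2. Of 12 genes of glucose-sensing Mondo factors and their targets, the group to which Txnip belongs, 0 were called, 4 had an unadjusted p below 0.05 and 12 were positive, with a median of 0.23. Khk and Slc2a5 of this list are also on the enterocyte list, and whether its other genes are high in enterocytes was not examined. G6pc is also among the other FOXO targets. Slc2a2 (1.41 ± 0.25), Khk (0.67 ± 0.13), Tkfc (0.41 ± 0.14) and Pklr (0.31 ± 0.13) had the smallest p. A list of 13 stress genes held ones that act with GADD45 proteins or respond to the same signals. Of these, 0 were called, 3 had an unadjusted p below 0.05 and 11 were positive, with a median of 0.22. Over all genes tested 9.30% had an unadjusted p below 0.05 and 54.2% were positive. Egr1 (0.60 ± 0.16), Fos (0.50 ± 0.14), Atf3 (0.42 ± 0.16) and Junb (0.28 ± 0.14), all transcription factor genes of the early stress response, had the smallest p.

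**Figure D5:**
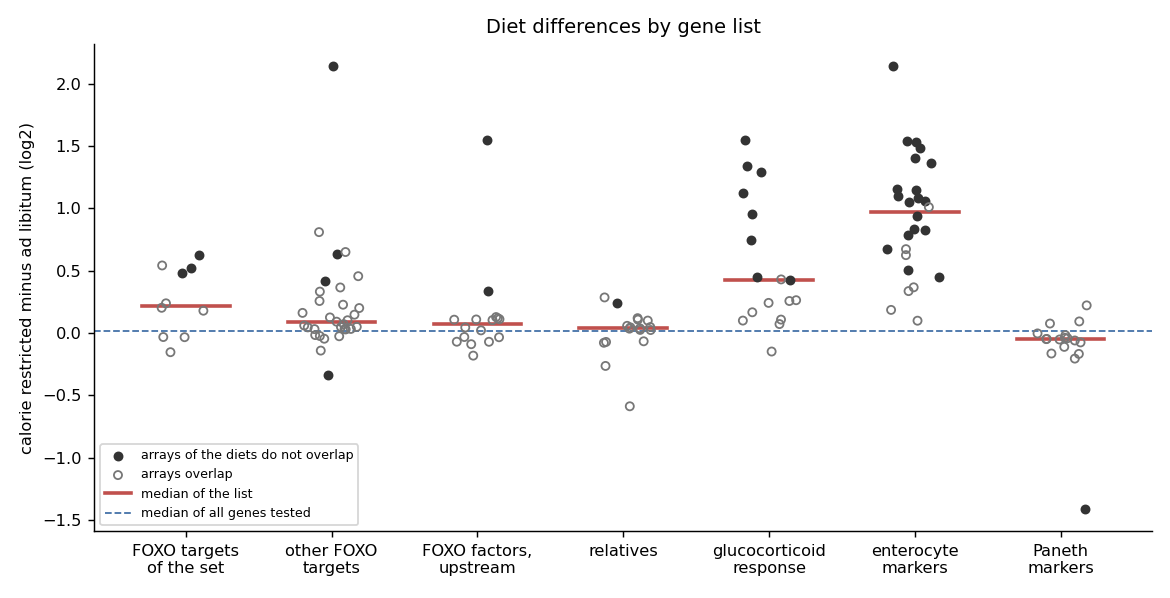
Diet differences (log2, calorie restricted minus ad libitum) of the genes tested in each list. Filled points are genes whose diets do not overlap, red lines are list medians and the dashed line is the median of all genes tested (0.01). The FOXO target set has a median of 0.22, glucocorticoid response genes 0.43 and enterocyte markers 0.97, and Paneth markers -0.05, with the pentraxin gene Mptx1 far below the rest.

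The identity of the cells was read from marker genes. Paneth markers were bright in every array, with Lyz1 at 14.31 ± 0.04 against 14.31 ± 0.02 and Clps at 14.23 ± 0.08 against 14.28 ± 0.07, and 0 of 17 were called, with 1 at an unadjusted p below 0.05. Of the 17, 14 were negative, with a median of -0.05. Lyz1 and Clps lie near the highest value of any array (14.67). The goblet list was as bright, with array means from 12.689 to 12.944, where those of the Paneth list were 12.555 to 12.986. Markers of enterocytes, the absorptive cells outside the crypt base, were also bright and moved with diet. All 26 tested were positive and 9 were called (Apoc3, Treh, Fabp2, Apob, Alpi, Enpep, Krt20, Apoa4 and Ada, with differences from 0.82 to 2.14). Anpep (13.48 ± 0.11 against 13.15 ± 0.17) and Mgam (12.90 ± 0.12 against 12.71 ± 0.22) were its brightest members. Goblet (8 tested), enteroendocrine (10), tuft (8), stem cell (8), immune (4) and stromal (6) lists had 0 called genes, and the array means of each overlapped between the diets. The brightest of these markers were Spink4 and Muc2, Chga and Gip, Dclk1 and Alox5ap, Olfm4 and Slc12a2, Lyz2 and Cd3e, and Vim and Col1a1. Spink4 is also on the Paneth list. Of the immune markers only Lyz2 was bright (12.82 ± 0.12 against 12.79 ± 0.04), with Cd3e next at 7.55 ± 0.14 against 7.62 ± 0.05.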

How the data were processed

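Total RNA of sorted Paneth cells was measured on 7 arrays. For each transcript cluster the authors deposited a log2 value, which the submitters' processing notes trace to Affymetrix Expression Console. Its algorithm and normalization method are not stated there, and the log2 scale was inferred from values between 2.97 and 14.67. Array medians were 7.24 to 7.44, correlations between arrays across clusters were 0.974 to 0.995, and precision is limited by the number of arrays. The labels call the samples biological replicates but name no animals, so p-values measure the spread between these samples.

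Of 35556 clusters, 21789 had 1 gene symbol in the platform annotation, 1621 had several and 12146 were unnamed here. Genes were named from clusters with 1 symbol, and 21698 of these matched RefSeq by gene identifier. The brightest cluster was kept per gene, and genes with a mean at or above the 40th percentile of all clusters (6.79) were tested. The fit was limma 3.58.1 (R 4.3.3), lmFit and eBayes with an intensity trend, with Benjamini-Hochberg adjustment over 13409 genes. It was tested on simulated data. The 10 genes, the 16 other lists and the tests were chosen with earlier results of these data known. From each list up to 4 genes with the smallest p were named, with the 2 brightest of each marker list and the 2 genes closest in pattern to each of the 10. Relatives were named beside the gene they resemble, and Foxo1, Foxo3, Foxo4, Gabarap, Gabarapl2, Map1lc3b and Arrdc4 were chosen after their values were seen where the rule did not name them. Alternatives were 2 other normalizations, 2 other filters, the mean of clusters, 3 other variance or weight settings, the replicate number as a block, an enterocyte covariate and leaving out each array. Figures used matplotlib 3.10.9.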

Additional observations from a re-analysis of the deposited data

Results flagged for a closer look

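Klf15 in calorie restricted replicate 4, at 9.44, stood far below the other 3 calorie-restricted arrays, which lay between 10.16 and 10.23. The gap to the nearest array was 0.922 of the range of the group, above Dixon's 95% critical value for 4 samples. Chance flags about 1 in 20 groups, and 10 genes were examined. Without this array the Klf15 difference was 0.37 in place of 0.18. Gabarapl1 was also lowest in this array, with a gap of 0.766 of the range, below that critical value.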

How the results depend on the processing

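With quantile normalization 53 genes of the whole array were called higher and 0 lower, against 88 and 1 with the deposited values. The array had 0 lower genes after median centring or with the 60th percentile filter, and 2 when no filter was used. The number of the 10 genes called was 0 under these settings (of 9 tested with the 60th percentile filter, which left out Pik3ip1), 1 without an intensity trend (Gadd45b, adjusted p = 0.0480) and 5 with array weights. Those 5 were Gadd45b (0.65), Bcl6 (0.69), Cited2 (0.59), Ccng2 (0.48) and Gadd45a (0.44). With array weights the median of the 10 genes was 0.45, and 963 genes of the array were called higher (7.18%) and 392 lower. Ad libitum replicates 1 to 3 had weights of 0.292, 2.93 and 0.958, so replicate 2 counted most in the ad libitum mean. Calorie restricted replicates 1 to 4 had weights of 1.105, 2.363, 1.256 and 0.371. With the enterocyte marker mean as a covariate 0 genes were called in either direction over the array, the median of the 10 genes was -0.0832, and the differences of Txnip (-0.61), Klf15 (-0.48), Bcl6 (-0.33), Gadd45a (-0.34), Pik3ip1 (0.30) and Cdkn1b (0.17) turned sign. Gadd45b (0.76), Cited2 (0.23), Ccng2 (0.32) and Gabarapl1 (-0.34) kept theirs, and adjusted p was 0.987 for all of these. The marker mean did not overlap between the diets, and SEs were larger with it. They were 0.43 for Txnip, 0.63 for Klf15 and 0.50 for Bcl6, against 0.19, 0.24 and 0.21 without it. The signs in this fit are therefore uncertain and do not show what remains without enterocyte content. Cdkn1b and Gabarapl1 also turned sign after median centring (0.0529 and 0.0541), Gabarapl1 with array weights (0.10), and Cdkn1b without ad libitum replicate 2 (0.024). Leaving out each array moved Cdkn1b between -0.0738 and 0.024 and Gabarapl1 between -0.1097 and 0.1044. Without calorie restricted replicate 4 or ad libitum replicate 1 Gabarapl1 was at 0.10 and 0.06. Leaving out each array gave 12 to 97 genes called higher and 0 to 9 lower over the array, 3 to 5 of the 10 genes with every calorie-restricted array above every ad libitum array, against 7.90% to 14.2% of all genes tested, and medians of the 10 genes from 0.12 to 0.36.

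The labels do not say that replicate numbers pair the samples. Same-numbered arrays had deviations from their group mean correlated at -0.13, -0.27 and -0.55 across genes. Differently numbered arrays ranged from -0.73 to 0.64. Deviations within so few arrays constrain one another, so these correlations cannot decide whether samples were paired. With the replicate block 0 genes were called higher and 0 lower over the array, Gabarapl1 was at 0.10, and the median of the 10 genes was 0.34. Sgk1, Zbtb16, Fkbp5 and Podn also lost their calls with the block (limma, adjusted p = 0.105, 0.102, 0.0995 and 0.160). Calorie restricted replicate 4 has no ad libitum array of its number, so the block takes it out of the diet difference. The differences of the 10 genes with the block were therefore those without that array. In both fits Txnip was at 0.2543, Klf15 at 0.3688 and Gabarapl1 at 0.1044, with a median of 0.3362. The block also fits more terms, which leaves less information on the spread. Why the calls were lost was not tested.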

Other observations

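Cdkn1b had a further transcript cluster on the array besides the brightest one. It was at 8.14, 8.19, 7.21 and 8.0002 in calorie restricted replicates 1 to 4, against 7.88, 8.19 and 7.52 in ad libitum replicates 1 to 3. This dimmer cluster was lowest in calorie restricted replicate 3, where the brightest cluster was not low.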
